A study of Homo sapiens with 6 samples.

Results

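The genes described are 10 transcription factors and marker genes of the mesenchymal state, namely SNAI1, SNAI2, ZEB1, ZEB2, TWIST1, TWIST2, VIM, FN1, PRRX1 and SPARC. They were found by their gene symbol among the 57342 genes of a table of fragment counts, and all 10 are present in it. RNA was sequenced from H295R, a human adrenocortical carcinoma cell line, in 3 libraries labelled H295R, which are the parental cells, and 3 libraries labelled H295R-PM-Ptc+. The latter are H295R cells that were sorted by flow cytometry for Ptch1, the Hedgehog receptor, at the plasma membrane and then amplified in culture. Both groups therefore come from 1 cell line. The sources used here do not say whether the replicates were separate cultures, so that p-values measure the spread between these libraries, which may be technical.

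The names of the groups need caution. PTCH1, the gene of the protein used for sorting, was at 21.3 ± 2.56 CPM (counts scaled to library size, mean ± SD, n = 3) in the libraries labelled H295R and at 12.2 ± 2.19 CPM in those labelled H295R-PM-Ptc+ (log2 fold change -0.81, SE 0.147, adjusted p = 0.0207). A normalized table published with the study has 6 columns, and each equals, up to a scale factor, the deposited column with the same run code but the other group's name. The counts alone cannot tell which names are right. If the deposited names are exchanged, every direction given here turns around.

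Between 23264403 and 25813247 fragments were counted per library. The markers of the adrenal cortex were expressed, NR5A1 and STAR among them, and 10 of 11 were abundant enough to be tested. Their summed level was 1731 to 2081 CPM in the libraries labelled H295R and 2297 to 2549 CPM in those labelled H295R-PM-Ptc+. SCARB1 alone was at 762 to 851 CPM and at 1224 to 1311 CPM in these groups. Of the 10 tested markers, 5 had a log2 fold change above 0, and the median was -0.03. SCARB1 (log2 fold change 0.63, adjusted p = 0.00345) and CYP21A2 (0.88, adjusted p = 0.00670) were called higher. STAR (0.41, adjusted p = 0.346) was called only with the replicate number as a block (adjusted p = 3.91e-06), as was CYP11A1 in the lower direction (-0.25, adjusted p = 0.391, with the block 0.00100). STAR is also among the genes that the study picked from these libraries, and its direction is no independent evidence. Of the markers of other cell types, LUM (fibroblasts), PTPRC (leukocytes) and DBH and PNMT (adrenal medulla) had no count in any library. CD14 (leukocytes, 15 to 32 counts) and CHGA (medulla, 18 to 39 counts) were tested and not called, CHGA with levels of 0.783 and 1.16 CPM in the libraries labelled H295R and H295R-PM-Ptc+ that did not overlap (log2 fold change 0.57, adjusted p = 0.305). The summed level of the 7 fibroblast markers was 44.6 to 49.9 CPM in the libraries labelled H295R and 56.9 to 61.8 CPM in those labelled H295R-PM-Ptc+, most of it FAP, while DCN had at most 5 counts. The 5 endothelial markers summed to 0.197 to 0.335 CPM and to 0.509 to 0.648 CPM, and none of them was abundant enough to be tested. The part of these genes in the differences below was not tested.

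In an epithelial to mesenchymal transition, cells give up their lateral junctions and gain a motile, matrix-producing phenotype. The zinc finger factors of the SNAI and ZEB families bind E-box sequences in the promoters of epithelial genes such as CDH1 (E-cadherin) and recruit corepressors there, and the bHLH factors TWIST1 and TWIST2 act on the same program. PRRX1 is a homeobox factor of mesenchymal cells. Vimentin (VIM) is the intermediate filament of mesenchymal cells, fibronectin (FN1) is a matrix glycoprotein that integrins bind, and SPARC is a secreted protein that binds collagen. The adrenal cortex arises from mesoderm, and its cells express vimentin and few keratins.

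The ZEB factors are known targets of the miR-200 family of microRNAs, and the ZEB proteins in turn repress the genes of that family. The mature RefSeq sequences (GRCh38.p14) are given to show the shared seeds, bases 2 to 8, which are in capitals.
hsa-miR-200b-3p: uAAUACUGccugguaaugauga
hsa-miR-200c-3p: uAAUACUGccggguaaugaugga
hsa-miR-429: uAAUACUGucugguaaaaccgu
hsa-miR-200a-3p: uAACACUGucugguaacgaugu
hsa-miR-141-3p: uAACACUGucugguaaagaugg
The seed AAUACUG is shared by miR-200b-3p, miR-200c-3p and miR-429, and the seed AACACUG by miR-200a-3p and miR-141-3p. The entries of the microRNA genes themselves, MIR200B, MIR200C, MIR429, MIR200A and MIR141, had 0 counts in all 6 libraries. Libraries of polyA RNA do not capture mature microRNAs, so that these zeros say nothing on the level of the microRNAs themselves. These genes were chosen after their counts were seen.

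A RefSeq promoter entry was matched for 7 of the 10 genes. The 250 bases before each start were searched on both strands for CAGGTG, the E-box that SNAI and ZEB factors bind, for GGGCGG, the GC box, and for TATAAA. The E-box and the GC box can share the G at their ends. Of 35116 such windows of all genes, 17.5% held CAGGTG, 42.6% held GGGCGG and 10.7% held TATAAA. The windows of ZEB1, VIM and FN1 are shown because these genes represent the E-box factors, the filament and the matrix, with CAGGTG and GGGCGG in capitals on either strand.
ZEB1, chr10:31318167-31318416, plus strand: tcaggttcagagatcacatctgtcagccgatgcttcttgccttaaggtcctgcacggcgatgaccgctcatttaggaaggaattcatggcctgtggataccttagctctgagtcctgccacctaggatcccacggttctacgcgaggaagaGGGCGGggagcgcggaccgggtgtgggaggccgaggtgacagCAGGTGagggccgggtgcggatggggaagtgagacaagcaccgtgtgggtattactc
VIM, chr10:17227991-17228240, plus strand: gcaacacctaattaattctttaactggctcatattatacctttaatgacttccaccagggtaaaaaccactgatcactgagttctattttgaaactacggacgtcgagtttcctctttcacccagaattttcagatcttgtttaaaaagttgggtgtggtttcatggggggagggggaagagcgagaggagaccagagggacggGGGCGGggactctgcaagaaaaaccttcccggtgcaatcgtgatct
FN1, chr2:215436173-215436318, minus strand: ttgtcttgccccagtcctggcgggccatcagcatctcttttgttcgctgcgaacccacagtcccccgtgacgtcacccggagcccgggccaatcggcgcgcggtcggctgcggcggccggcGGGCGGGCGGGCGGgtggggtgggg
The ZEB1 window held 1 E-box and 1 GC box. The VIM window held 1 GC box and no E-box. The FN1 window held 6 copies of the GC box, of which 3, overlapping each other, lie in the 146 bases shown, since the rest of the window falls within exons of the count table and was not printed. Across the 13 windows of the 7 genes, 7 of them alternative starts of ZEB1, the E-box occurred in 2 and the GC box in 8.

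The 10 genes differed widely in level. Compared per length in RPKM (CPM per kilobase of exon), the mean over the 6 libraries was 327 for SPARC, 261 for VIM, 20.4 for SNAI2, 13.6 for TWIST1, 4.87 for ZEB2, 3.19 for ZEB1 and 1.05 for FN1. SPARC and VIM thus stood far above the factors, and ranked 66 and 91 of the 16710 tested genes by RPKM. PRRX1, SNAI1 and TWIST2 followed at 0.134, 0.129 and 0.105 RPKM, and their ranges overlapped. The ranges of SPARC and VIM overlapped as well, although SPARC was the higher in 6 of 6 libraries, while every other pair of neighbors in this order was separated in all libraries. Each family was therefore present mainly through SNAI2, TWIST1 and both ZEB genes, with SNAI1 and TWIST2 near the limit of detection. PRRX1, with 18 to 35 counts per library, was low but passed the filter on low counts.

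**Figure D1:**
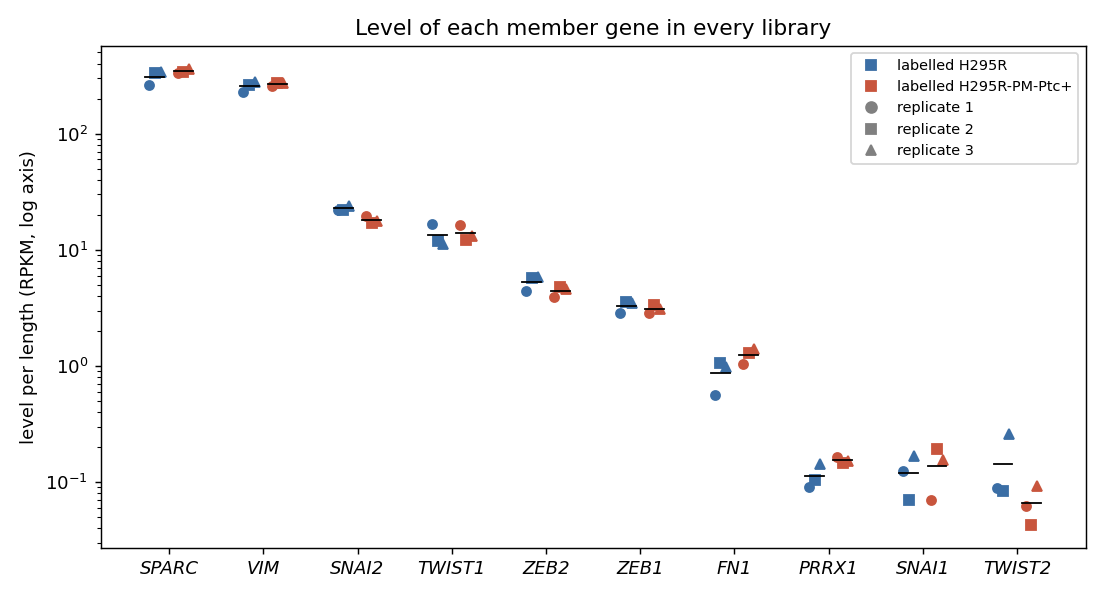
The level per length in RPKM (log axis) of the 10 genes is plotted for every library, with color for the group label, symbols for the replicate number and a bar at the group mean of 3 libraries. SPARC and VIM lie near 300 RPKM, the SNAI2, TWIST1, ZEB2 and ZEB1 factors between about 3 and 24, and PRRX1, SNAI1 and TWIST2 overlap below 0.3.

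SNAI1, TWIST2 and PRRX1 aside, the differences between the groups were small against these differences in level. Of the 10 genes, 8 passed the filter on low counts and were tested, and SNAI1 and TWIST2 were not. None of the 8 was called by edgeR with the group as the only term (adjusted p under 0.05), where 3.73% of all 16710 tested genes were called. At an unadjusted p under 0.05 there were 2, FN1 higher in the libraries labelled as H295R-PM-Ptc+ and SNAI2 lower, where the background was 17.3% (9.6% higher and 7.67% lower). DESeq2 called 1, SNAI2, against 4.56% of the genes it tested, and limma-voom called 0, against 3.64%. The groups did not overlap for 2 of the 8, against 23.5% of all tested genes.

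The same-numbered replicates of both groups deviated together, and with the replicate number as a block in edgeR 4 of the 8 were called, against 22.5% of all tested genes (12.1% higher and 10.4% lower). FN1 and SPARC had higher levels where the label was H295R-PM-Ptc+ and SNAI2 and ZEB2 had lower ones, so that the called genes were split evenly between the directions. DESeq2 with the block called 3, all but SPARC, against 10.4% of the genes it tested. Without a filter on low counts edgeR with the block called the same 4 genes of all 10, against 13.1% of its 30966 tested genes. All 3 pairs of same-numbered libraries moved one way for 6 of the 8, against 52.6% of all tested genes. The fold changes hardly differed between both fits, while the standard errors of ZEB2, TWIST1 and FN1 were 2.32, 2.41 and 2.29 times larger without the block.

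**Figure D2:**
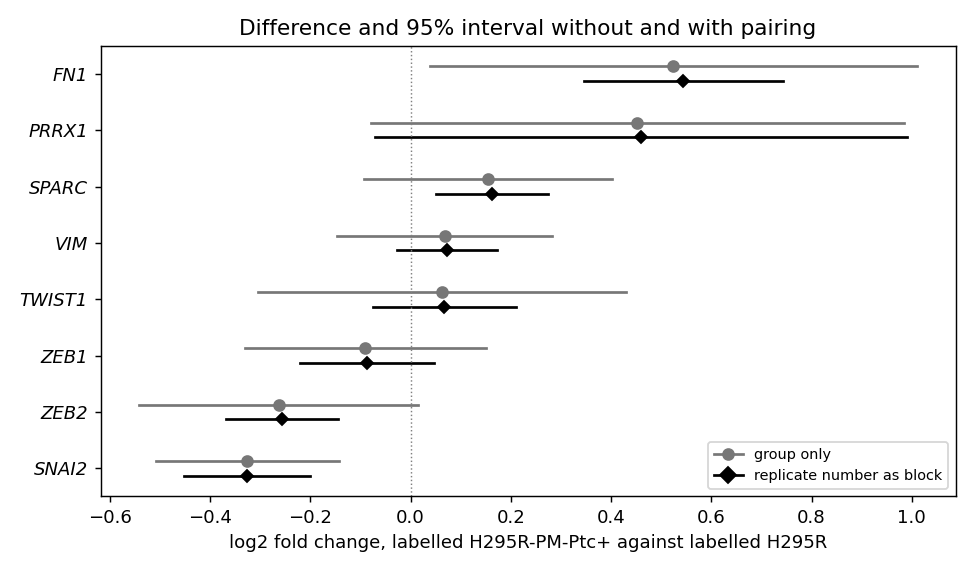
The log2 fold change of the 8 tested genes (label H295R-PM-Ptc+ relative to label H295R) is drawn with its 95% interval from the fit with the group only (grey circles) and with the replicate number as a block (black diamonds). The points coincide and the intervals narrow with the block for all but PRRX1, and with the block those of FN1, SPARC, SNAI2 and ZEB2 exclude 0.

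SNAI2, also called SLUG, lies on the minus strand at chr8:48917690-48921740 (hg38). It was at 50.6, 50.4 and 54.6 CPM in the libraries labelled H295R and at 44.7, 39.0 and 40.4 CPM in those labelled H295R-PM-Ptc+. Every library of the first group was above every library of the second. This is a log2 fold change of -0.33 (SE 0.0806, adjusted p = 0.0632). With the block it was -0.33 (SE 0.0592, adjusted p = 8.59e-04), and the 3 pairs differed by -0.18, -0.37 and -0.43 on the log2 scale. SNAI2 is also among the genes that the study picked from these libraries, and its direction is no independent evidence. In RNA from whole cultures, fewer cells expressing a gene and less RNA per cell cannot be told apart for any of these genes.

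SNAI1, the paralog of SNAI2 at chr20:49982999-49988886, had 5, 3 and 7 counts in the libraries labelled H295R and 3, 8 and 6 in those labelled H295R-PM-Ptc+. The sums were 15 counts (95% exact Poisson interval 8.40 to 24.7) and 17 counts (9.90 to 27.2), and these intervals, which cover counting error only, overlapped. A difference was not detectable at this depth. Per length, SNAI2 was between 89.6 and 315 times as abundant as SNAI1 in the single libraries. The log2 ratio of SNAI2 to SNAI1 differed by -0.49 between the groups (two-sided exact permutation test over the 6 libraries, p = 0.4), where 3 against 3 libraries cannot give a p below 0.1. The pairs differed by 0.65, -1.82 and -0.31, and the difference was -0.15 without H295R-PM-Ptc+ replicate 2, -0.16 without H295R replicate 2, -0.73 without H295R replicate 3 and -0.98 without H295R-PM-Ptc+ replicate 1.

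ZEB2, which lies on the minus strand at chr2:144388001-144524580, was at 57.6, 74.9 and 77.5 CPM in the libraries labelled H295R and at 52.0, 62.5 and 60.6 CPM in those labelled H295R-PM-Ptc+. Replicate 1 was the lowest of its group on both sides, and the groups overlapped because of it. Its log2 fold change was -0.26 (SE 0.123, adjusted p = 0.319) and with the block -0.26 (SE 0.0530, adjusted p = 0.00234). The 3 pairs differed by -0.15, -0.26 and -0.35 on the log2 scale. Without both libraries of replicate 3 the blocked call was lost (log2 fold change -0.22, adjusted p = 0.0677).

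ZEB1, on the plus strand at chr10:31318495-31529814, was at 24.6, 30.7 and 30.0 CPM in the libraries labelled H295R and at 24.6, 28.7 and 26.9 CPM in those labelled H295R-PM-Ptc+. The groups overlapped, and the log2 fold change of -0.09 did not pass the test without the block (SE 0.106, adjusted p = 0.747) or with it (adjusted p = 0.360). The 95% interval of the difference with the block was -0.22 to 0.05. With the group only, dropping replicate 1 or 2 labelled H295R moved the value to -0.19 or -0.032, and dropping replicate 1 or 2 labelled H295R-PM-Ptc+ moved it to -0.040 or -0.15. Antisense to ZEB1, the gene ZEB1-AS1 overlapped 4.23% of its exon bases and had 194 to 235 counts, and the authors counted with the strand.

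The balance of both ZEB genes separated the groups within libraries. Per length, the log2 ratio of ZEB2 to ZEB1 was 0.62, 0.68 and 0.76 in the libraries labelled H295R and 0.47, 0.52 and 0.57 in those labelled H295R-PM-Ptc+. The ranges did not overlap, and the mean ratio was lower by -0.17 (two-sided exact permutation test, p = 0.1, the smallest p that 3 against 3 libraries allow). The 3 pairs differed by -0.15, -0.16 and -0.20. This ratio does not depend on how the libraries are scaled.

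TWIST1, on the minus strand at chr7:19020991-19117672, was at 33.9, 24.3 and 23.0 CPM in the libraries labelled H295R and at 33.1, 24.7 and 26.9 CPM in those labelled H295R-PM-Ptc+. Its level followed the replicate number and not the group. Replicate 1 exceeded the mean of the other replicates by 0.52 and 0.36 on the log2 scale in the groups labelled H295R and H295R-PM-Ptc+. For TWIST1 the log2 fold change of 0.06 (SE 0.162, adjusted p = 0.903) did not pass the test with the block either (adjusted p = 0.524, 95% interval -0.08 to 0.21), and it turned to the other sign where single libraries were left out, as given in the closing section.

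TWIST2, at chr2:238848032-238910543, had 4, 4 and 12 counts in the libraries labelled H295R and 3, 2 and 4 in those labelled H295R-PM-Ptc+. The sums of 20 (95% exact Poisson interval 12.2 to 30.9) and 9 counts (4.12 to 17.1) had overlapping intervals, and replicate 3 labelled H295R held 12 of the 20. The log2 ratio of TWIST2 to TWIST1 differed by -1.06 (two-sided exact permutation test, p = 0.2), and by -0.43 without H295R replicate 3.

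PRRX1, on the plus strand at chr1:170662728-170739419, had 18, 22 and 29 counts in the libraries labelled H295R and 35, 30 and 29 in those labelled H295R-PM-Ptc+. In CPM these were 0.753, 0.866 and 1.17 against 1.37, 1.21 and 1.25, so that the groups did not overlap. The counting error of a single library was 16.9% to 23.6%. The log2 fold change of 0.45 (SE 0.235, adjusted p = 0.374) did not pass the test, nor with the block (adjusted p = 0.209), and its 95% interval was -0.08 to 0.98.

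FN1, on the minus strand at chr2:215360440-215436172, was at 9.71, 18.2 and 16.9 CPM in the libraries labelled H295R and at 17.996, 22.2 and 24.4 CPM in those labelled H295R-PM-Ptc+. Replicate 1 was again the lowest on both sides, and the groups overlapped only because replicate 2 labelled H295R was just above replicate 1 labelled H295R-PM-Ptc+. For FN1 the log2 fold change was 0.52 (SE 0.214, adjusted p = 0.253) and with the block 0.54 (SE 0.0935, adjusted p = 5.52e-04, 95% interval 0.35 to 0.74). The pairs differed by 0.89, 0.28 and 0.53, and the blocked call held without the libraries of any 1 replicate number, with the log2 fold change between 0.41 and 0.69. Without the single library H295R replicate 1, the fit with the group only gave 0.29 (adjusted p = 0.249).

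SPARC, on the minus strand at chr5:151661096-151687165, was at 1268, 1600 and 1639 CPM in the libraries labelled H295R and at 1600, 1658 and 1757 CPM in those labelled H295R-PM-Ptc+. The lowest value was that of replicate 1 labelled H295R, and the other 5 libraries lay close together. The log2 fold change was 0.15 (SE 0.109, adjusted p = 0.534) and with the block 0.16 (SE 0.0529, adjusted p = 0.0370). Without the single library H295R replicate 1 it was 0.045 with the group only (adjusted p = 0.807). The blocked call was lost without replicate 1 (log2 fold change 0.08, adjusted p = 0.201), without replicate 3 (0.18, adjusted p = 0.102) and in DESeq2 with the block (0.16, adjusted p = 0.0559).

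VIM, on the plus strand at chr10:17228259-17237593, was at 1127, 1290 and 1386 CPM in the libraries labelled H295R and at 1269, 1354 and 1363 CPM in those labelled H295R-PM-Ptc+. The groups overlapped, and the log2 fold change was 0.07 (SE 0.0944, adjusted p = 0.791, with the block adjusted p = 0.302). The 95% interval was -0.15 to 0.28 with the group only and -0.03 to 0.17 with the block. VIM had 26924 to 34261 counts per library, with a counting error of 0.540% to 0.609%. VIM-AS1 and another antisense gene cover 25.4% of the VIM exon bases, but VIM-AS1 had 35 to 72 counts.

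**Figure D3:**
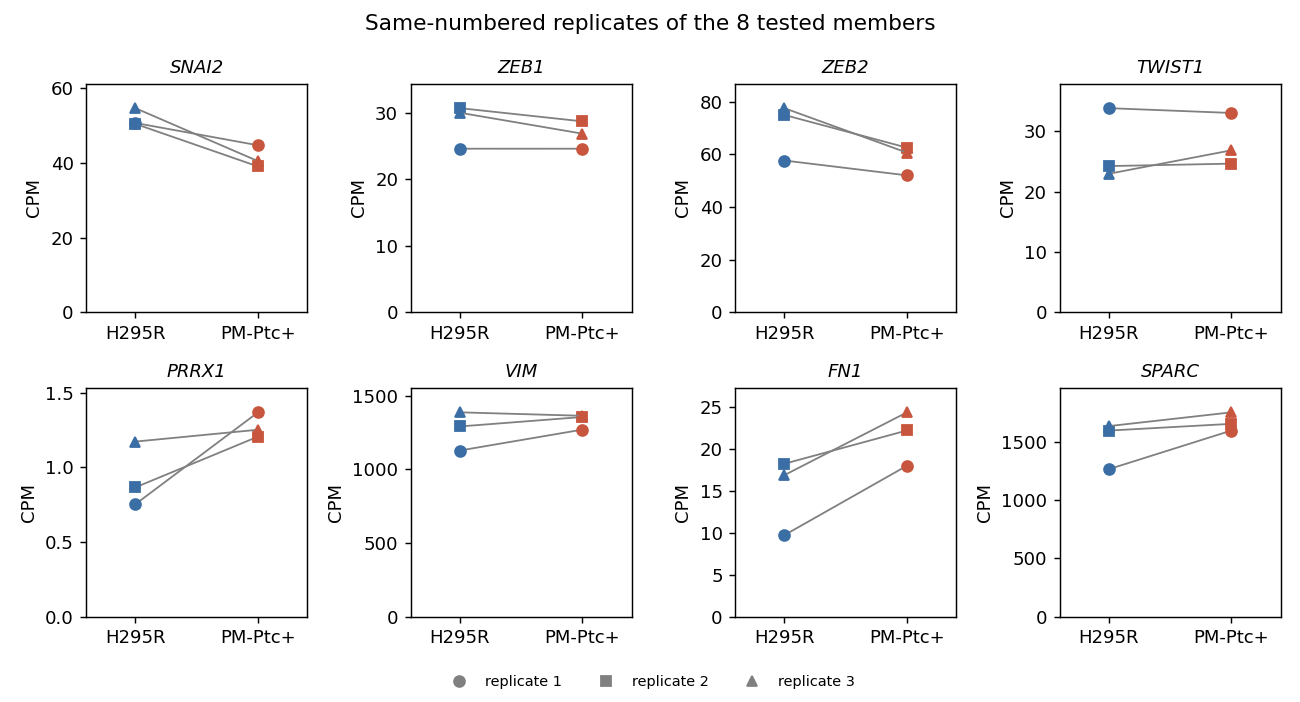
The level in CPM of each of the 8 tested genes is plotted for the libraries labelled H295R (left) and H295R-PM-Ptc+ (right), with a line between same-numbered replicates and each axis starting at 0. The 3 lines of FN1 all slope up and those of SNAI2 and ZEB2 all slope down, while in TWIST1 replicate 1 stays high on both sides.

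The level of most members also moved with the replicate number. In the libraries labelled H295R, replicate 1 lay below the mean of replicates 2 and 3 by a log2 difference of -0.85 for FN1, -0.40 for ZEB2, -0.35 for SPARC, -0.30 for ZEB1 and -0.25 for VIM. In those labelled H295R-PM-Ptc+ the same differences were -0.37, -0.24, -0.09, -0.17 and -0.10. These 5 genes were thus lowest in replicate 1 of each group, with the opposite order in TWIST1 and no common order in SNAI2 (-0.05 and 0.17) or PRRX1 (-0.42 and 0.16).

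Among epithelial genes, the keratins KRT8 and KRT18, the filament pair of simple epithelia, had larger log2 fold changes than any of the 8 tested genes. KRT8 was at 0.209, 0.906 and 0.728 CPM in the libraries labelled H295R and at 2.43, 2.65 and 3.02 CPM in those labelled H295R-PM-Ptc+ (log2 fold change 2.11, adjusted p = 0.0132). KRT18 was higher there too (log2 fold change 1.30, adjusted p = 0.0179). Both have many pseudogenes with which reads can be shared, so that their counts are uncertain. The log2 ratio of VIM to KRT8 plus KRT18 per length was 9.04, 8.19 and 8.52 in the libraries labelled H295R and 7.27, 7.11 and 6.94 in those labelled H295R-PM-Ptc+. The ratio was lower by -1.47 with no overlap (two-sided exact permutation test, p = 0.1, the smallest possible), and even its lowest value left vimentin 123 times above both keratins.

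**Figure D4:**
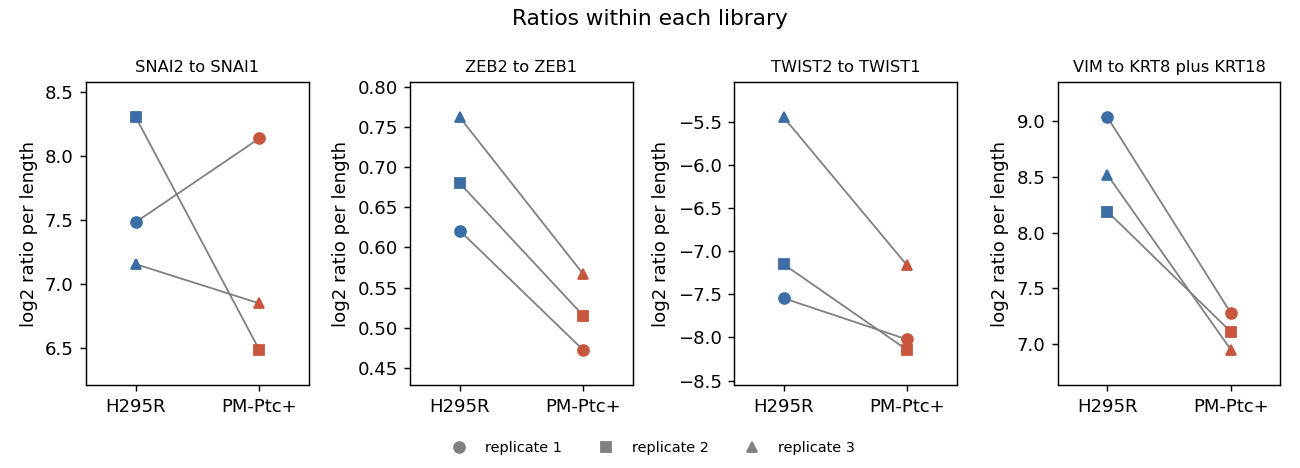
The log2 ratio per length of the gene pairs within each library is plotted for both group labels, with a line between same-numbered replicates. The ratios of ZEB2 to ZEB1 and of VIM to KRT8 plus KRT18 are lower in all 3 libraries labelled H295R-PM-Ptc+, while the ratios that rest on the low counts of SNAI1 and TWIST2 overlap.

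Over 10 lists of other genes of the transition, 15 of 127 tested genes were called with the group only, 12 with higher levels under the label H295R-PM-Ptc+ and 3 with lower levels, where 2.42% and 1.32% of all tested genes were called in these directions. With the block 51 were called, 32 higher and 19 lower, where 12.1% and 10.4% of all tested genes were called. Leaving out single libraries gave 7 to 19 calls, with 7 without replicate 2 labelled H295R-PM-Ptc+, 8 without replicate 3 labelled H295R-PM-Ptc+ and 9 without replicate 3 labelled H295R. The median log2 fold change was 0.03, beside 0.00094 over all tested genes. With the group only, most calls lay in the lists of mesenchymal effectors and epithelial targets, whereas with the block most calls lay in the other lists.

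Of the mesenchymal effectors, the structural and matrix genes of the program, 27 were tested, 6 were called higher and 1 lower, and the median log2 fold change was 0.33. TGFBI, a matrix protein induced by TGF-beta, was between 0.157 and 0.243 CPM in the libraries labelled H295R and between 3.41 and 4.87 CPM in those labelled H295R-PM-Ptc+ (log2 fold change 4.28, SE 0.277, adjusted p = 3.25e-04). AXL, a receptor tyrosine kinase, rose by 2.39 on the log2 scale (SE 0.251, adjusted p = 0.00132). COL3A1, THY1 and ITGA5, a subunit of the fibronectin receptor, were higher as well, with log2 fold changes of 1.51, 1.29 and 0.36. In the libraries labelled H295R, TGFBI had only 4 to 6 counts, AXL 9 to 19 and THY1 15 to 18. COL3A1 and ITGA5 had at least 573 and 870 counts in every library. Of the 27 tested effectors, 20 were not called. COL5A1, a fibrillar collagen, was the 1 gene called lower with the group only (log2 fold change -0.96, adjusted p = 0.00925). With the block 13 were called higher and 3 lower, beside 12.1% and 10.4% of all tested genes, and the lower genes then included CDH2, the N-cadherin gene that mesenchymal cells express, and the collagen COL5A2. CDH2 was at 163 ± 27.7 CPM (SD, n = 3) in the libraries labelled H295R and at 115 ± 20.7 CPM in the others with no overlap, a log2 fold change of -0.50 (adjusted p = 0.132, with the block 7.12e-07). For COL5A2 it was -0.31 (adjusted p = 0.285, with the block 0.0105). COL3A1, THY1, ITGA5, COL5A1, CDH2 and COL5A2 were named after their values were seen. TGFBI, COL5A1, COL3A1, THY1 and CDH2 are among the genes that the study selected on these libraries, so that their direction is not independent evidence. The fibroblast markers, of which THY1 is one, had the summed levels given above.

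Of the epithelial targets, junction and keratin genes that the SNAI and ZEB factors repress, 13 of 20 were tested, 4 were called higher and none lower, beside 2.42% and 1.32% of all tested genes. With the block 6 were called higher and none lower, beside 12.1% and 10.4%. CLDN4, a claudin of tight junctions, rose by 1.47 (SE 0.176, adjusted p = 0.00252), from between 1.29 and 1.54 CPM to between 3.38 and 4.30 CPM. EPCAM, an epithelial adhesion molecule that was named after its value was seen, was the remaining called gene besides both keratins (log2 fold change 0.92, adjusted p = 0.0382). CDH1, the E-cadherin gene, had 3 to 5 counts in every library and was not tested. Of the 12 epithelial keepers, factors that maintain the epithelial state, only 2 were tested, and EHF, an ETS factor, fell by 1.38 on the log2 scale (SE 0.219, adjusted p = 0.0106).

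The intermediate filament genes other than VIM showed 1 call in each direction among 10 tested genes with the group only, and 4 higher and 2 lower with the block. NES, the nestin gene, rose by 1.44 (SE 0.198, adjusted p = 0.00514) and NEFL, the light neurofilament chain, fell by 0.34 on the log2 scale (SE 0.0749, adjusted p = 0.0417). Of the 20 tested genes of inducing signals, 1 was called, STAT3, a transcription factor downstream of cytokine receptors (log2 fold change 0.48, SE 0.0706, adjusted p = 0.00777). With the block these 20 genes had 2 calls higher and 4 lower, beside, as for the filaments, 12.1% and 10.4% of all tested genes.

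None of the genes that act with the factors was called with the group only. These lists held 7 tested bHLH partners and inhibitors, 16 corepressors, 11 regulators of SNAI protein stability, 6 other transition factors and 15 matrix partners of FN1 and SPARC. Among the genes with a mean of at least 1 CPM, the largest log2 fold change of each list was that of TCF4, a bHLH partner of TWIST1 (0.34, adjusted p = 0.118), CTBP2, a corepressor that ZEB proteins bind (-0.29, adjusted p = 0.0956), the kinase PAK1 (-0.31, adjusted p = 0.104), KLF8 (-0.58, adjusted p = 0.284) and SPARCL1, a relative of SPARC (0.41, adjusted p = 0.0736). With the block TCF4 (adjusted p = 7.98e-05), CTBP2 (8.15e-04), PAK1 (7.78e-04) and SPARCL1 (0.00689) were called and KLF8 was not. The matrix partners then had 5 calls higher and 3 lower, and each of the other 4 lists had at most 1 higher and 2 lower, beside 12.1% and 10.4% of all tested genes.

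**Figure D5:**
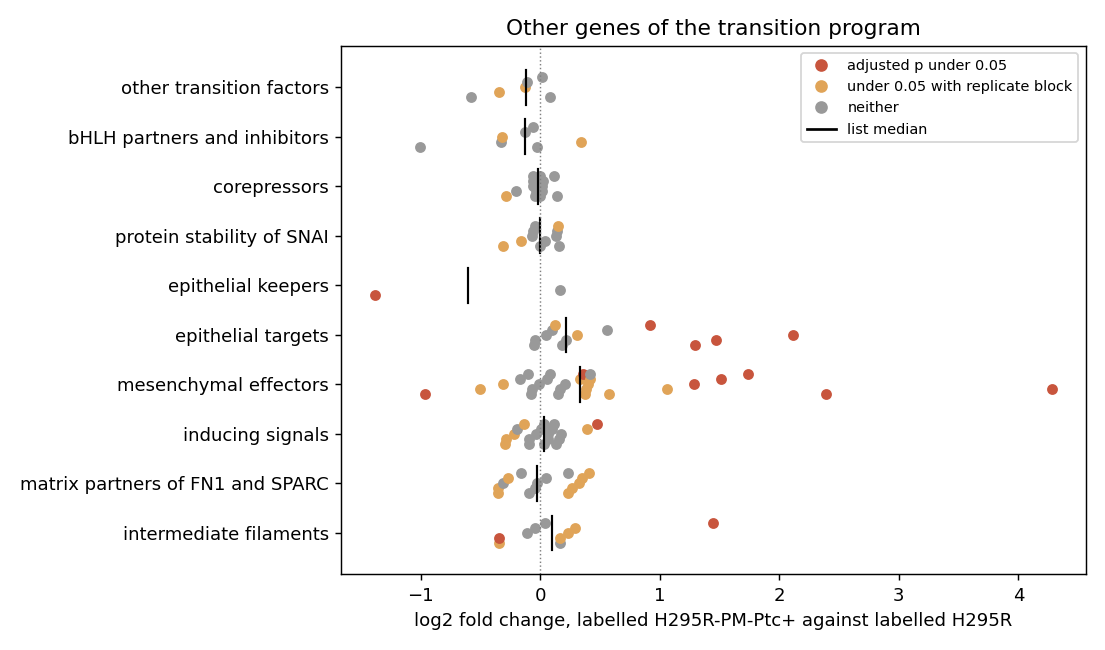
The log2 fold change of every tested gene is plotted by list (label H295R-PM-Ptc+ relative to label H295R), with a black bar at the list median and color for the genes called with the group only, called with the block alone, or neither. The genes beyond 1 on the log2 scale are effectors such as TGFBI and AXL, the keratins and CLDN4, and NES on the higher side, with EHF and the uncalled ID4, a low gene, on the lower side.

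For SNAI2 and PRRX1, whose groups did not overlap, the genes with the most similar course over the 6 libraries were taken by the root mean square distance of their centered log2 CPM. Nearest to SNAI2 were NEFL at a distance of 0.0252, HOXA10 at 0.0435 and KTI12 at 0.0442. Nearest to PRRX1 were SLC7A5 at 0.0545, TSPAN18 at 0.0549 and ITGA5 at 0.0635. NEFL and ITGA5 were called, as given above, while HOXA10 (log2 fold change -0.31, adjusted p = 0.0552), KTI12, SLC7A5 and TSPAN18 were not. Genes picked for a course like that of a member whose groups do not overlap differ between the groups by selection. These calls are therefore no separate evidence. These distances are descriptions over 6 libraries. For PRRX1, with 18 to 35 counts per library, they are smaller than the counting error of a single library, so that its neighbors partly match this error.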

How the data were processed

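RNA of 3 libraries labelled H295R and 3 labelled H295R-PM-Ptc+ was analysed. The authors aligned paired reads to hg38 with STAR 2.4.0a, assigned fragments to gene names by featureCounts (primary alignments, stranded, multiply mapped reads included) and deposited raw counts without normalization. The submitters' processing notes name Subread 1.5.0-p3, while the methods name another version. Total counts per library limit the precision of low genes such as SNAI1, and intervals cover counting error only.

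The quasi-likelihood F-test of edgeR 4.0.16 (R 4.3.3) was run on these counts after filterByExpr and TMM scaling, two-sided and with the group as its only term, with Benjamini-Hochberg adjustment over all 16710 tested genes. CPM used the TMM-scaled library sizes, and RPKM the exon length of the deposited table. The scripts were tested on simulated data. The study used DESeq2, which was run as an alternative (1.42.0), beside limma-voom (3.58.1), relative log expression factors, other filters, leaving out libraries and the replicate number as a block. The deviations of replicates 1, 2 and 3 from their group means correlated at 0.594, 0.405 and 0.325 between same-numbered libraries. Those of other pairs correlated at -0.443 to 0.211, with 0.211 and 0.154 for replicate 2 against replicate 3. Deviations from a mean of 3 libraries depend on each other, which lowers the values of other pairs. The numbers come from the labels, and the pairing was clearest for replicate 1 and less so between replicates 2 and 3. Fits that join the block with another alternative were added after the data were seen.

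The members and lists were chosen with earlier results of these data known. Named are all 10 members, up to 3 called genes of each list with the largest log2 fold change (without a call, the largest with a mean of at least 1 CPM), and for a member whose groups do not overlap the 3 nearest genes with a mean of at least 5 CPM. A called gene of the lists that this rule names is not reported here. Promoter and microRNA sequences are from RefSeq. Python 3.11.15, pandas 2.3.3, scipy 1.17.1 and matplotlib 3.10.9 were used.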

Additional observations from a re-analysis of the deposited data

How the results depend on the processing

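Of 160 log2 fold changes of the 8 tested members under 20 alternatives, 119 stayed on their side of the threshold in the same direction, 36 passed it in the same direction, and 5 turned sign. Leaving out single libraries gave -0.012 to 0.13 for VIM, below 0 once (H295R replicate 1 left out), and -0.076 to 0.25 for TWIST1, with -0.011 and -0.054 when H295R replicate 2 or 3 was dropped and the lowest value when it was H295R-PM-Ptc+ replicate 1. TWIST1 also turned sign with the replicate block without replicate 3 (-0.017). The number of members called, 0 with the group only, was 4 with the replicate block, 1 with DESeq2 (SNAI2), 2 without a filter on low counts (SNAI2 and FN1), 3 without both libraries of replicate 1 (SNAI2, ZEB2 and FN1), and 0 to 1 without single libraries (the 1 was ZEB2 when H295R replicate 1 was dropped, and SNAI2 when it was H295R-PM-Ptc+ replicate 1). With the block it was 3 in DESeq2, 4 with relative log expression factors, 4 without a filter, 4 where each library had to hold 10 counts, and 2 to 4 without a replicate number. The genes called in the lists, 15 with the group only, were 51 with the block, 37 without both libraries of replicate 1, and 7 to 19 without single libraries. With the block they were 37 in DESeq2, 51 with relative log expression factors, 54 without a filter, 48 with at least 10 counts and 41 to 64 without a replicate number. The cause of these shifts was not tested. The differences of the 4 ratios kept their sign in every alternative run, and the block changed no call of theirs, since 3 pairs cannot give a p below 0.25. SNAI1 and TWIST2 were limited by their counts, at most 8 and 12 in a library.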
